A study of Homo sapiens with 6 samples.

Results

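The genes described here encode the synaptic vesicle and its release machinery. They are 36 listed gene symbols, looked up in the symbol column of the count tables, of 36601 genes in those tables. All 36 were found. Of these, 34 had enough counts to be tested, and SV2B and CADPS2, with 0 to 6 UMIs in each library, did not. Membership followed the list of symbols and no cutoff on a measured value, but the list was chosen with earlier results of these data known. The members were ordered by role. Of these, 5 were synaptotagmins, labelled calcium sensors although SYT11 does not bind calcium. Another 9 were SNARE proteins or SNARE partners, and 11 were proteins of the vesicle membrane or its coat. The last 11 were proteins of the active zone, of priming or of the Rab3 family.

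Libraries were made from SK-N-BE(2)-C, a long-established neuroblastoma line of human origin, profiled cell by cell with Seq-Well S3, which pairs cells with barcoded beads in an array of small wells. There were 3 treatments with 2 libraries each: DMSO, the solvent control; TSA, the common short name of trichostatin A, which blocks the catalytic site of histone deacetylases (HDACs); and E6R, known here only by its code name, in a series about inhibiting HDAC complexes without blocking the enzyme. All libraries came from the same unmodified line, and no dose, treatment time or structure of E6R is given in the labels. The labels number the replicates but do not say whether they were separate cultures, so p-values measure the spread between these libraries, which may be technical. With a single line and 2 libraries a treatment, nothing here speaks of other neuroblastoma lines or of neurons.

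A total of 17589 cells passed the filter of at least 500 genes and at most 20% mitochondrial UMIs, with 1861 to 3946 cells and 4206366 to 26180262 UMIs per library. Median depth ran from 1053.5 to 1880 UMIs per cell, and both DMSO libraries had the smallest sums. Any 2 libraries shared 11 to 58 cell barcodes, at most 2.11% of the smaller library. The largest 1% of cells in E6R replicate 2 held 22.5% of its UMIs, and mitochondrial genes held 1.51% and 1.55% of UMIs under E6R against 5.83% to 9.71% in the other libraries. The adrenergic neuroblastoma markers HAND2 and GATA3, both transcription factors, were present in every library, at 197 to 355 CPM and 112 to 170 CPM. Levels are given throughout as CPM, UMIs per 1000000 UMIs of the library's sum over cells, with library sizes scaled by TMM.

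Synaptic vesicles store transmitter and release it when calcium enters the terminal. Vesicle VAMP pairs with syntaxin and SNAP25 on the plasma membrane to form the SNARE complex that drives fusion; synaptotagmins sense calcium, complexins clamp and promote fusion, and NSF with its SNAP adaptors takes spent complexes apart. Piccolo, bassoon, RIM and Munc13 proteins organise the active zone and prime vesicles, Rab3 proteins mark vesicles for docking, and synapsins tether them in reserve. Sympathetic neuroblasts, the lineage from which neuroblastoma arises, use much of this apparatus for dense-core vesicles that hold catecholamines. Many of these genes are textbook targets of REST, a repressor that recruits HDACs to neuronal genes in other cells.

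Together the 36 members held 1292 and 1942 CPM in DMSO replicates 1 and 2, 2160 and 2448 CPM under TSA, and 1427 and 2054 CPM under E6R. With TMM scaling the TSA libraries had the highest sums, and replicate 2 exceeded replicate 1 within each treatment. SYT11 held 447 and 480 CPM of the TSA sums, against 76.9 and 162 CPM under DMSO and 128 and 134 CPM under E6R. SYT1, the main calcium sensor of fast release, held the most UMIs of all members under DMSO and E6R, at 358 to 432 CPM. Thinning to 1000 UMIs kept only cells with at least 1000. It left out 674 and 1450 cells under DMSO, 615 and 503 under TSA, and 692 and 1718 under E6R. In the thinned cells, members with a UMI were counted per cell. Their mean number was 1.27 and 1.83 under DMSO, 1.72 and 1.73 under TSA, and 1.22 and 1.90 under E6R. The mean number of member UMIs in those cells was 1.41 and 2.08, 1.95 and 2.02, and 1.37 and 2.19 in the same order. On both counts replicate 2 of DMSO and of E6R lay above both TSA libraries.

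**Figure D1:**
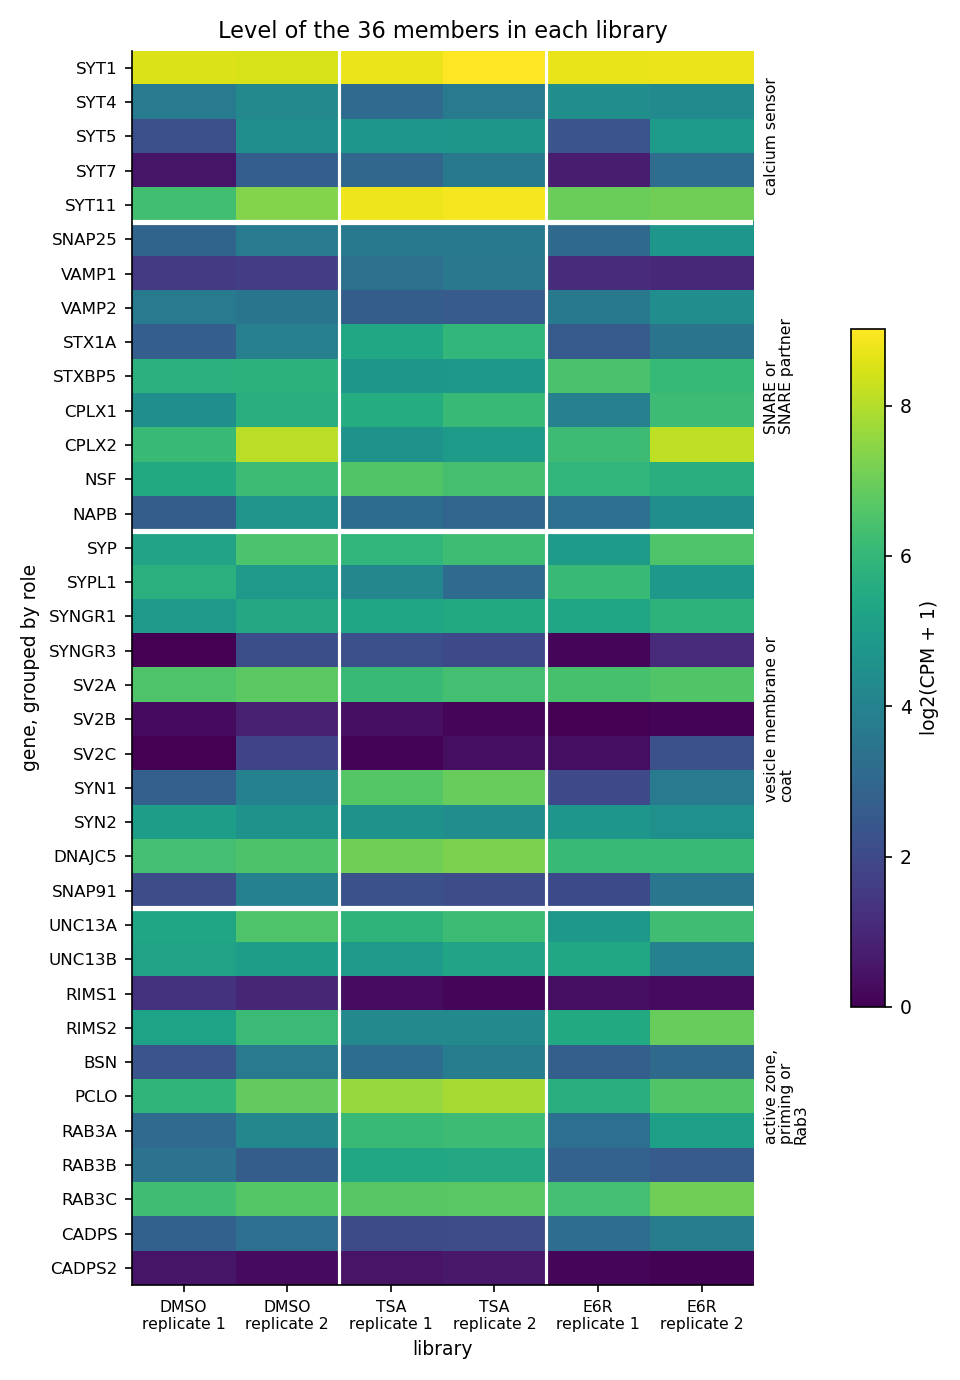
Level of each of the 36 members (rows, grouped by role) in each of the 6 libraries (columns), coloured by log2 of CPM plus 1. SYT1 is bright in every column, SYN1, RAB3A, RAB3B and STX1A are brighter in both TSA columns, and CPLX2 is darker in both TSA columns than in the other 4.

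The first comparison asked how the enzymatic inhibitor TSA changed these genes relative to DMSO. Of the 34 tested members, 13 (38.2%) passed an adjusted p of 0.05 in edgeR's quasi-likelihood test, against 29.7% of all 16763 genes tested. In a refit kept to the 7534 genes averaging at least 20 CPM, 42.5% passed. Many members reached that level, but the 38.2% also covers members below it, so these shares are not over like sets. Whether members were called more often than genes of like level was not tested. Of the 13, 8 rose (SYN1, RAB3B, RAB3A, STX1A, VAMP1, SYT11, PCLO and DNAJC5) and 5 fell (RIMS1, CPLX2, SYPL1, RIMS2 and STXBP5). Among all genes, 16.2% rose and 13.5% fell. The median fitted log2 fold change of the members was 0.23, beside -0.01 for all genes, and their median absolute change was 1.06, beside 0.78. In 13 members both TSA libraries lay above both DMSO libraries, and in 10 both lay below, where 36.7% and 34.6% of all genes did so.

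The split between rises and falls depended on the scaling. With total counts as library sizes, 14 members were called, 6 higher and 8 lower, against 30.3% of all genes, and the median of all genes moved from -0.01 to -0.32. A fit with the replicate number as a block called 17 members, 10 higher and 7 lower, against 36.1% of all genes. With a fold change of 1.5 as the null, 6 members were called, all higher, against 15.8% of all genes. Leaving out a DMSO or TSA library lowered the count. Fits lacking DMSO replicate 1 or 2 called 6 and 8 members, against 14% and 15% of all genes. Fits lacking TSA replicate 1 or 2 called 5 and 2 members, against 9.84% and 7.79%. In those 4 fits the remaining library of the arm was assumed to vary like the other groups. Fits lacking E6R replicate 1 or 2 called 14 and 15 members, against 33% and 33.6%.

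Markers of the adrenergic state, the neuroblast-like state of neuroblastoma, were read beside the members. Of the 9 reported here, 2 were called lower and 0 higher for TSA against DMSO, with a median log2 of -0.54 and values from -4.27 to 0.79. Their summed level was 3431 and 2756 CPM under DMSO, 3090 and 3440 CPM under TSA, and 3020 and 3667 CPM under E6R, so the sums overlapped. For single markers, both TSA libraries lay below both DMSO libraries in 5 of the 9 and above in 2, beside 34.6% and 36.7% of all genes. None of the 9 was at 0 in any library. For E6R against TSA 3 were called higher and 0 lower, and for E6R against DMSO 0 were called. The part of these markers in the members' changes was not tested.

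**Figure D2:**
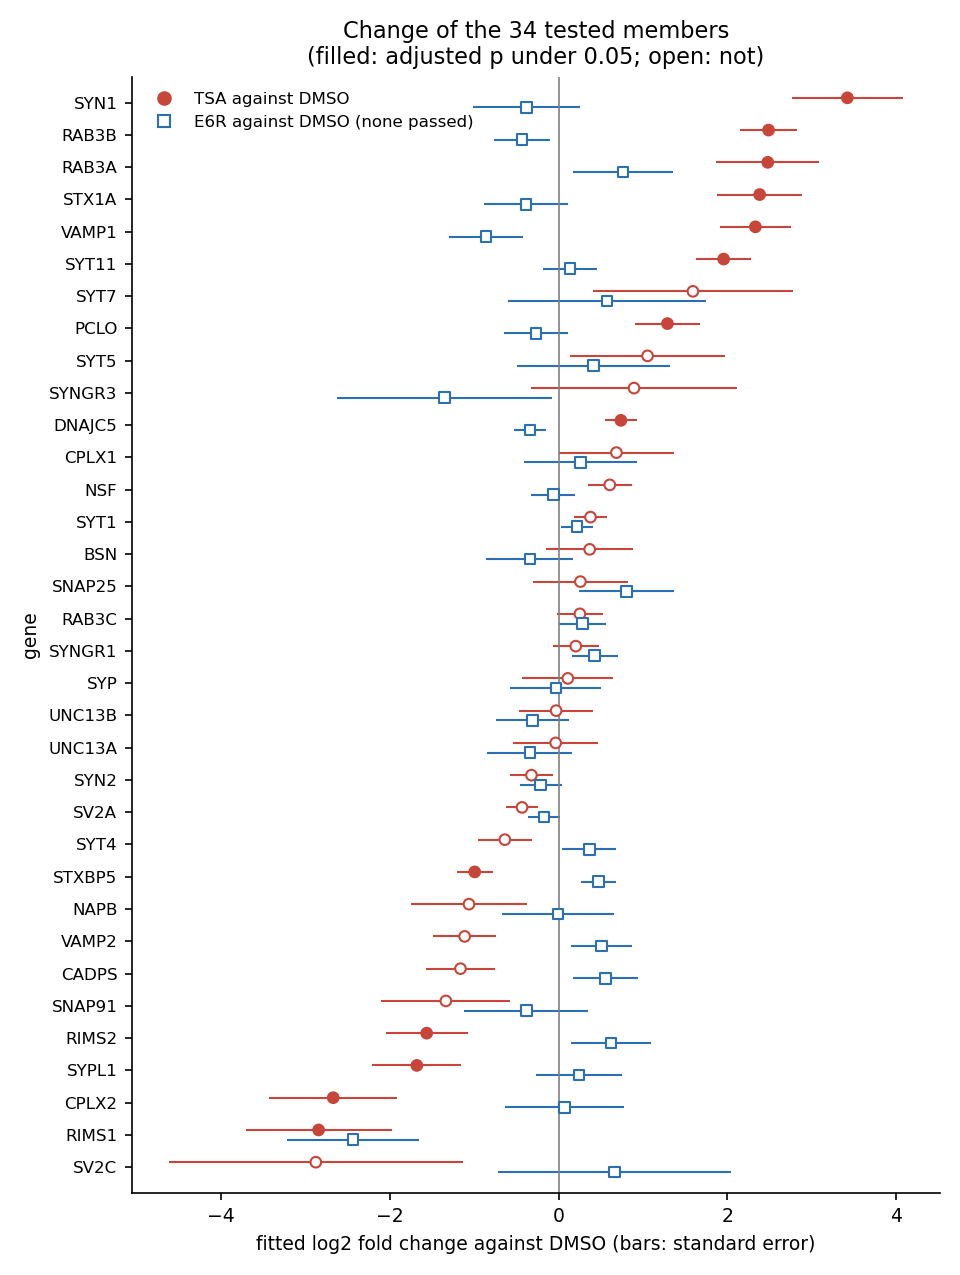
Fitted log2 fold change against DMSO (x axis, bars are standard errors) of the 34 tested members (y axis), for TSA (red circles) and E6R (blue squares); filled symbols passed an adjusted p of 0.05. The TSA values spread from -2.88 (SV2C) to 3.42 (SYN1) with 13 filled, and no E6R symbol is filled.

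SYN1 encodes synapsin I, a phosphoprotein that tethers vesicles to each other and to actin, and had the largest rise. It held 5.74 and 14.5 CPM in DMSO replicates 1 and 2, 98.1 and 121 CPM under TSA, and 2.97 and 12.4 CPM under E6R. Both TSA libraries stood far above the other 4, which overlapped. The fitted rise over DMSO was 10.7-fold (log2 3.42, SE 0.66, adjusted p = 0.00807). Over 22 alternatives the adjusted p ran from 5.12e-24 to 0.0517, the latter without TSA replicate 2. Without DMSO replicate 2 the log2 value was 4.17. The lowest adjusted p over the alternatives lay far below the main fit's 0.00807 and, with 2 libraries a treatment, is not read as strength of evidence. SYN2, a second synapsin, stayed between 20.4 and 31.4 CPM in all 6 libraries (log2 -0.32, SE 0.25, adjusted p = 0.357).

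Among the SNARE proteins, STX1A (syntaxin 1A, the plasma-membrane partner of SNAP25) rose. It held 5.52 and 14.2 CPM under DMSO, 41.4 and 62.0 CPM under TSA, and 4.93 and 10.1 CPM under E6R. The TSA libraries lay above all others, a 5.22-fold rise over DMSO (log2 2.38, SE 0.50, adjusted p = 0.0114). Over 22 alternatives its adjusted p ran from 1.06e-09 to 0.0831, and the call was lost without DMSO replicate 1 (0.0521) and without TSA replicate 2 (0.0831). Without DMSO replicate 2 its log2 value was 3.14. SNAP25, the third SNARE subunit, was scarce, at 6.59 and 12.6 CPM under DMSO, 11.5 and 11.6 CPM under TSA, and 7.77 and 25.8 CPM under E6R. Its groups overlapped in all 3 comparisons and it passed in none of them (TSA against DMSO log2 0.26, SE 0.57, adjusted p = 0.753).

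The vesicle SNAREs VAMP1 and VAMP2, also called synaptobrevins, had fitted changes of opposite sign. VAMP1 held 1.91 and 2.10 CPM under DMSO, 9.12 and 11.2 CPM under TSA, and 1.20 and 1.02 CPM under E6R, so the 3 treatments did not overlap. Its DMSO values rested on 9 and 11 UMIs. Its rise under TSA was 5.04-fold (log2 2.33, SE 0.42, adjusted p = 0.00654), with adjusted p from 0.000414 to 0.0951 over 21 alternatives, lost in cells thinned to 1000 UMIs (0.0951) and without TSA replicate 2 (0.0701). VAMP2 held 12.3 and 10.3 CPM under DMSO, 5.39 and 5.05 CPM under TSA, and 11.4 and 20.7 CPM under E6R. Both TSA libraries lay below the others, but the fitted change (log2 -1.11, SE 0.38) had an adjusted p of 0.0571. It passed with the replicate block (0.0364) and in 8 further alternatives of 21, which ranged from 0.0211 to 0.246.

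The complexins, which bind the assembled SNARE complex, were CPLX1 and CPLX2. CPLX2 held 66.5 and 270 CPM under DMSO, 23.5 and 29.4 CPM under TSA, and 72.0 and 282 CPM under E6R. The TSA libraries were lowest, while replicates 1 and 2 of DMSO and of E6R were far apart. CPLX2 fell 6.38-fold under TSA (log2 -2.67, SE 0.76, adjusted p = 0.0327). This call was lost with a fold change of 1.5 as the null (0.0588) and without DMSO replicate 2 (0.180), TSA replicate 1 (0.178) or TSA replicate 2 (0.149), over a range from 2.86e-22 to 0.180. The log2 value was -3.31 without DMSO replicate 1 and -1.41 without DMSO replicate 2. CPLX1 held 21.7 and 49.7 CPM under DMSO and 47.5 and 67.7 CPM under TSA, which overlapped (log2 0.69, SE 0.68, adjusted p = 0.470).

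STXBP5, known as tomosyn, sequesters syntaxin and limits SNARE assembly. It held 53.3 and 54.3 CPM under DMSO, 26.7 and 27.3 CPM under TSA, and 84.5 and 64.8 CPM under E6R. No 2 treatments overlapped, with TSA lowest and E6R highest. Its fall under TSA was 1.99-fold (log2 -0.995, SE 0.21, adjusted p = 0.0116), and over 22 alternatives the adjusted p ran from 0.000752 to 0.0958. The call was lost with a fold change of 1.5 as the null (0.0699) and without DMSO replicate 1 (0.0599), TSA replicate 1 (0.0934) or TSA replicate 2 (0.0958). The disassembly ATPase NSF (log2 0.61, adjusted p = 0.116) and its adaptor NAPB (log2 -1.06, adjusted p = 0.270) did not pass.

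Of the 5 synaptotagmins, SYT11 passed the test for TSA against DMSO. SYT11, a family member that does not bind calcium, held 76.9 and 162 CPM under DMSO, 447 and 480 CPM under TSA, and 128 and 134 CPM under E6R. Both TSA libraries exceeded the highest other library, a 3.88-fold rise over DMSO (log2 1.96, SE 0.33, adjusted p = 0.00498). The call was kept in all 22 alternatives, with adjusted p up to 0.0395. SYT1 held 376 and 358 CPM under DMSO, 436 and 519 CPM under TSA, and 421 and 432 CPM under E6R. Its TSA libraries were highest with TMM scaling, but the change was small and did not pass (log2 0.38, SE 0.19, adjusted p = 0.170). On plain UMI sums SYT1 held 421 and 391 CPM under DMSO, 402 and 447 CPM under TSA, and 423 and 439 CPM under E6R, which overlapped. SYT5 and SYT7, linked to dense-core vesicle release, had fitted log2 values of 1.05 and 1.59 with adjusted p of 0.408 and 0.334; with the replicate block these were 0.0471 and 0.0290. SYT4 had a log2 value of -0.64 (adjusted p = 0.170).

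On the Rab3 side, RAB3A and RAB3B, small GTPases that bind vesicles when loaded with GTP, both rose. RAB3B held 9.77 and 5.36 CPM under DMSO, 41.7 and 43.0 CPM under TSA, and 6.13 and 5.04 CPM under E6R. The TSA libraries lay well above the rest, a 5.62-fold rise (log2 2.49, SE 0.33, adjusted p = 0.00235) that was kept in all 21 alternatives with adjusted p up to 0.0294. RAB3A held 7.86 and 17.0 CPM under DMSO, 67.1 and 72.4 CPM under TSA, and 8.78 and 33.4 CPM under E6R. Its TSA libraries were again highest, 5.58-fold over DMSO (log2 2.48, SE 0.61, adjusted p = 0.0195). RAB3A was not called without DMSO replicate 1 (0.102), TSA replicate 1 (0.0723) or TSA replicate 2 (0.0879), over a range from 1.34e-12 to 0.102. Without DMSO replicate 2 its log2 value was 3.07. RAB3C, at 75.2 to 132 CPM over the 6 libraries, did not pass (log2 0.25, SE 0.27, adjusted p = 0.511).

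The active-zone scaffolds moved in different directions. PCLO, which encodes piccolo, held 58.6 and 116 CPM under DMSO, 197 and 230 CPM under TSA, and 49.3 and 95.2 CPM under E6R. The TSA libraries lay above all others, and PCLO rose 2.45-fold (log2 1.29, SE 0.39, adjusted p = 0.0399). It was not called with total counts (0.0842), a fold change of 1.5 as the null (0.110), or without DMSO replicate 1 (0.160), TSA replicate 1 (0.108) or TSA replicate 2 (0.160), over a range from 3.59e-05 to 0.160. Its relative BSN, bassoon, had overlapping groups (log2 0.37, SE 0.52, adjusted p = 0.614).

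RIM proteins tether calcium channels and Rab3 at the release site. RIMS2 held 36.3 and 70.4 CPM under DMSO, 18.0 and 18.1 CPM under TSA, and 43.7 and 120 CPM under E6R. Its TSA libraries were lowest and nearly equal, 2.96-fold below DMSO (log2 -1.56, SE 0.49, adjusted p = 0.0442). It lost the call in 7 of 22 alternatives, 3 of them without DMSO replicate 2 (0.194), TSA replicate 1 (0.188) or TSA replicate 2 (0.192), over a range from 7.73e-08 to 0.194. RIMS1 rested on few molecules, with 7 and 5 UMIs under DMSO, 3 and 1 under TSA, and 4 and 5 under E6R. Its fitted fall under TSA (log2 -2.85, SE 0.87, adjusted p = 0.0412) stood beside a UMI ratio of 0.134 over DMSO, with an exact 95% counting interval from 0.0316 to 0.443. RIMS1 was called in 7 of the 16 alternatives that tested it; without each DMSO or TSA replicate its adjusted p lay between 0.0926 and 0.249, over a range from 0.0271 to 0.249. Its log2 value was -3.63 without TSA replicate 1. The priming factors UNC13A (log2 -0.03, adjusted p = 0.967), UNC13B (log2 -0.03, adjusted p = 0.968) and CADPS (log2 -1.16, adjusted p = 0.0637) did not pass, and CADPS passed with the replicate block (0.0387).

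Of the vesicle membrane and coat proteins other than SYN1, DNAJC5 and SYPL1 were called. DNAJC5 encodes cysteine string protein alpha, a vesicle co-chaperone for SNAP25. It held 78.8 and 89.9 CPM under DMSO, 132 and 150 CPM under TSA, and 67.0 and 66.3 CPM under E6R, with no overlap between treatments. The rise was small, 1.67-fold (log2 0.74, SE 0.19, adjusted p = 0.0209), and was kept in 14 of 22 alternatives. It was lost without each DMSO or TSA replicate (adjusted p from 0.0711 to 0.131), with total counts (0.118), without a low-count filter (0.0524), in thinned cells (0.107) and against 1.5-fold (0.230), over a range from 0.00470 to 0.230.

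SYPL1, a broadly expressed relative of synaptophysin, held 51.4 and 28.7 CPM under DMSO, 16.9 and 8.01 CPM under TSA, and 67.5 and 27.2 CPM under E6R. The TSA libraries were lowest, 3.21-fold below DMSO (log2 -1.68, SE 0.53, adjusted p = 0.0454), and within each treatment replicate 1 was the higher. The call was kept in 14 of 22 alternatives and lost without each DMSO or TSA replicate (adjusted p from 0.0596 to 0.255), over a range from 1.57e-07 to 0.255. It was also lost with 300 or more genes per barcode (0.0624), at most 10% mitochondrial UMIs (0.0674), all deposited barcodes (0.0756) and against 1.5-fold (0.0995). Without TSA replicate 1 the log2 value was -2.29. SYP, synaptophysin itself, held 37.4 and 87.0 CPM under DMSO, 60.2 and 74.2 CPM under TSA, and 29.3 and 92.2 CPM under E6R. The 3 ranges overlapped and no comparison passed (TSA against DMSO log2 0.11, SE 0.54, adjusted p = 0.896). SV2A, the vesicle glycoprotein bound by the antiepileptic levetiracetam, stayed between 67.8 and 107 CPM and did not pass (log2 -0.43, SE 0.19, adjusted p = 0.126). SYNGR1, SYNGR3, SV2C and SNAP91 did not pass either, with adjusted p from 0.217 to 0.606. SV2C and SYNGR3 had no UMI in DMSO replicate 1. SV2C, with the lowest fitted log2 value (-2.88), had 13 UMIs in DMSO replicate 2, and 1 and 3 under TSA.

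**Figure D3:**
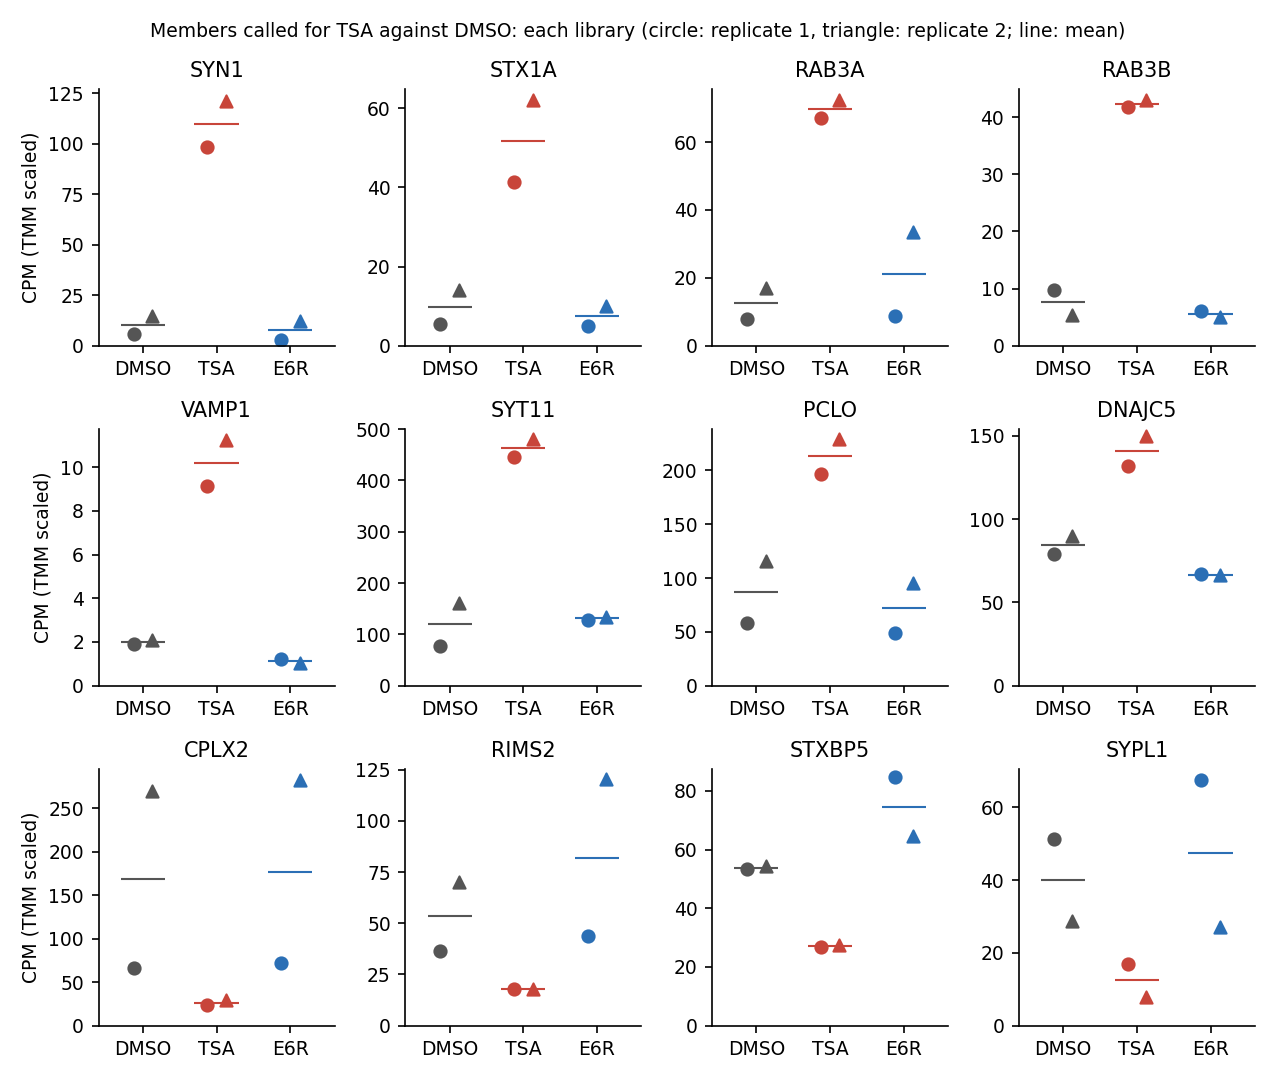
CPM (y axis of each panel, from 0) of 12 of the 13 members called for TSA against DMSO, in the 3 treatments (x axis), with circles for replicate 1, triangles for replicate 2 and a line at the mean. In 8 panels both TSA points lie above both DMSO points and in 4 below; RIMS1, with 1 to 7 UMIs per library, is not drawn.

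Within 4 families, chosen after their values were seen, the balance of UMIs between relatives differed under TSA. The ratio of VAMP1 to VAMP2 UMIs was 0.155 and 0.204 under DMSO, 1.69 and 2.22 under TSA, and 0.105 and 0.0491 under E6R. The ratio of SYN1 to SYN2 UMIs was 0.182 and 0.608 under DMSO, 4.11 and 5.94 under TSA, and 0.115 and 0.568 under E6R. That of CPLX1 to CPLX2 UMIs was 0.326 and 0.184, then 2.02 and 2.30, then 0.196 and 0.252 in the same order. In these 3 pairs both TSA libraries lay above 1 and the other 4 libraries below 1. The ratio of RAB3B to RAB3C UMIs was 0.130 and 0.0546 under DMSO, 0.408 and 0.413 under TSA, and 0.0780 and 0.0381 under E6R, below 1 throughout. A ratio of 1 means equal UMI counts. These ratios were read between libraries, and not as numbers of molecules of a gene beside its relative.

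**Figure D4:**
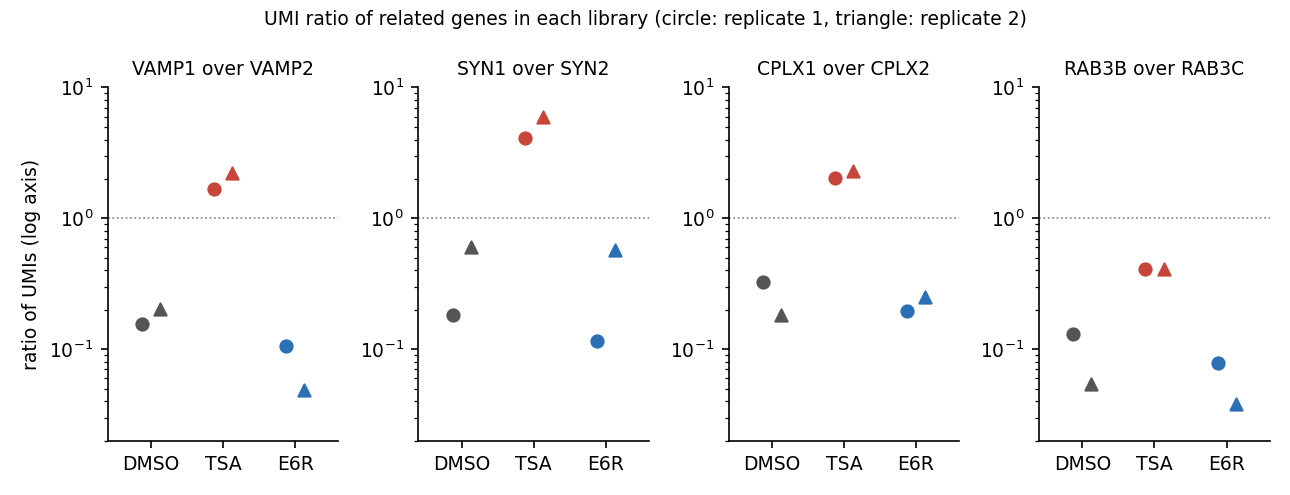
Ratio of UMIs of 4 pairs of related members (y axis, log scale, dotted line at 1) in the 3 treatments (x axis), with circles for replicate 1 and triangles for replicate 2. For VAMP1 over VAMP2, SYN1 over SYN2 and CPLX1 over CPLX2 the TSA points lie above 1 and all others below.

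The shares of cells with a UMI were also compared. Shares in cells thinned to 1000 UMIs cover only cells with at least 1000 UMIs, while unthinned shares cover all cells. In cells thinned to 1000 UMIs, SYN1 had a UMI in 0.421% and 1.96% of DMSO cells, 8.75% and 8.28% of TSA cells, and 0.318% and 1.26% of E6R cells. Without thinning these shares were 1.29% and 2.27%, 27.4% and 22.6%, and 1.49% and 5.63%. SYT11 had a UMI in 7.58% and 14.6%, 29.5% and 30.0%, and 10.4% and 11.7% of thinned cells. For both genes the TSA libraries had the highest shares.

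CPLX2 had a UMI in 6.91% and 23.8% of thinned DMSO cells, 1.62% and 2.90% of TSA cells, and 6.87% and 25.3% of E6R cells, lowest under TSA (unthinned 11.98% and 29.4%, 7.58% and 7.38%, 16.4% and 40.7%). SYT1 was even, with a UMI in 31.0% to 34.5% of thinned cells and 36.8% to 55.7% of unthinned cells. The line holds no cell type known to lack these genes, so barcodes with fewer than 500 genes, which can hold free RNA, were set beside the cells. In those barcodes SYN1 held 1.78 and 21.6 CPM under DMSO, 60.5 and 79.6 CPM under TSA and 2.62 and 12.3 CPM under E6R, on plain UMI sums, an order like that in cells. How much free RNA entered the cells' shares was not tested.

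Promoter sequences are shown for 5 called members to set the letters upstream of genes that rose beside those of a gene that fell. Of the 36 members, 30 had an entry in the RefSeq promoter table for GRCh38.p14, which spans 250 bases before to 50 after each start. The stretches below lie before the start, on the gene's strand and outside annotated coding genes of GENCODE 29. Capitals mark matches on either strand to a GC box (GGGCGG, read as CCGCCC on the other strand), to the core letters of an RE1, the element bound by REST (AGCACC, any 2 letters, GGACAG), or to a full cyclic AMP response element (TGACGTCA).
SYN1, chrX:47619944-47620107, minus strand: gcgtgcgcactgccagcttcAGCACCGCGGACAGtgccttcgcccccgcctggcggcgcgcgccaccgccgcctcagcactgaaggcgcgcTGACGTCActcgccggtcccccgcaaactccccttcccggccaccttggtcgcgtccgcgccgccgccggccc
STX1A, chr7:73719673-73719919, minus strand: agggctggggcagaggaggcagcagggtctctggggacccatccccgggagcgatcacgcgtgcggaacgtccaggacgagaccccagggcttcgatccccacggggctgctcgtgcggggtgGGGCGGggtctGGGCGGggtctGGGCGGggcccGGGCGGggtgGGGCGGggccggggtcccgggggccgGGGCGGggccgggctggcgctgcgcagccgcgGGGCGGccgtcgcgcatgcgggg
RAB3A, chr19:18204075-18204292, minus strand: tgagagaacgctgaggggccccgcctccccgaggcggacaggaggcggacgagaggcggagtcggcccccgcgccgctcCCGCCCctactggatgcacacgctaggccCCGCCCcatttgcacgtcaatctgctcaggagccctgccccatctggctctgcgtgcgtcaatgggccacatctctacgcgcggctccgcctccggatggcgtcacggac
RAB3B, chr1:51990765-51990950, minus strand: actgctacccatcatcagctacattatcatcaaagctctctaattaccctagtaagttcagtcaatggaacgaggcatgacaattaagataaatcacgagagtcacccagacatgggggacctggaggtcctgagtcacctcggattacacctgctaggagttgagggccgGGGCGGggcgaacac
STXBP5, chr6:147204167-147204416, plus strand: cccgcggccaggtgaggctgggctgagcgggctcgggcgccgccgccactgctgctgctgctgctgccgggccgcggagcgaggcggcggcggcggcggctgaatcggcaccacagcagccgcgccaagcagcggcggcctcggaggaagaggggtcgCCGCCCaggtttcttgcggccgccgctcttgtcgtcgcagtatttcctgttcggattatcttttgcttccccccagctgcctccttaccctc

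The RE1 core was found in the window of 1 member, SYN1, from 230 to 217 bases before its start, and in 16 (0.0586%) of 27305 promoters of the same length. SYN1 was also the only one of the 30 members with the full cyclic AMP element, from 159 to 152 bases before the start, which 1.98% of all promoters held. GC boxes were present in 22 (73.3%) of the 30 members and in 44.6% of all promoters: in 6 of the 8 that rose and 3 of the 4 with an entry that fell. STX1A carried 7 in the stretch shown. The E-box CACGTG was in 1 member, UNC13A, and in 7.44% of all promoters. These are letter matches and not tests of binding. Only 1 entry per gene was searched, so matches at other starts of a gene would be missed. The entry of SV2A (chr1:149906942-149907241) lies inside the annotated gene (chr1:149903318-149917882, minus strand). The 4 motifs were searched on both strands, and none of them overlaps another in the stretches shown.

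Some members overlap another gene, and whether the counting used strand is not stated in the labels. RAB3A overlaps MPV17L2 on the other strand, which also rose, from 34.4 and 46.9 to 146 and 116 CPM (log2 1.69, SE 0.25, adjusted p = 0.00305). VAMP1 overlaps TAPBPL, which fell (log2 -1.42, adjusted p = 0.0137). SYN1 overlaps TIMP1 (log2 -0.51, adjusted p = 0.338) and ARAF (log2 -0.47, adjusted p = 0.124), STX1A overlaps BUD23 (log2 -0.29, adjusted p = 0.335), and STXBP5 overlaps STXBP5-AS1 (log2 -1.09, adjusted p = 0.156). For RAB3A and MPV17L2, which moved the same way, reads of the overlap cannot be told apart without the strand.

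The second comparison asked whether E6R changed these genes relative to DMSO. None of the 34 tested members passed in edgeR's quasi-likelihood test, where 0% of the 16763 genes passed. At an unadjusted p under 0.05 there was 1 member, RIMS1, beside 17.4% of all genes. DESeq2 called 0 members and 2.65% of all genes, and the replicate block 0 members and 0.113% of all genes. The members' median log2 fold change was 0.03, equal at this rounding to that of all genes, and the fitted values ran from -2.44 (RIMS1) to 0.81 (SNAP25). In 3 members both E6R libraries lay above both DMSO libraries and in 3 tested members below, beside 24.6% and 22.7% of all genes.

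The 4 members with the smallest p under E6R were RIMS1, STXBP5, VAMP1 and DNAJC5. RIMS1 had 4 and 5 UMIs under E6R against 7 and 5 under DMSO in much shallower libraries (log2 -2.44, SE 0.79, adjusted p = 0.218), a UMI ratio of 0.176 with a 95% counting interval from 0.0654 to 0.454. STXBP5 lay higher in both E6R libraries (log2 0.47, SE 0.21, adjusted p = 0.294), while VAMP1 (log2 -0.86, SE 0.44, adjusted p = 0.351) and DNAJC5 (log2 -0.34, SE 0.18, adjusted p = 0.377) lay lower in both. For the 4 genes with the largest called rises under TSA, the log2 values of E6R against DMSO were -0.38 (SE 0.64) for SYN1, -0.43 (SE 0.33) for RAB3B, 0.76 (SE 0.59) for RAB3A and -0.39 (SE 0.50) for STX1A. Standard errors over the members ran from 0.18 to 1.38 with a median of 0.48, so small changes were not detectable in these libraries. Larger changes could also miss the cutoff, as RIMS1 did at log2 -2.44. The absence of calls does not show that larger changes were absent.

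The third comparison set E6R directly against TSA. It called 15 of 34 members (44.1%), beside 38.2% of all genes, 7 higher and 8 lower under E6R (18.7% and 19.5% of all genes). In the refit kept to the 7534 genes averaging at least 20 CPM, 48.6% were called, while the 44.1% also covers members below that level. The replicate block called 18, beside 45.1% of all genes. Both comparisons with TSA share its 2 libraries, so they are not independent. In 9 members both E6R libraries lay above both TSA libraries and in 12 below, beside 33.7% and 38.9% of all genes. Fits lacking TSA replicate 1 or 2 called 8 and 7 members, beside 17.7% and 14.4% of all genes, and those lacking DMSO replicate 1 or 2 called 15 and 14, beside 35.7% and 34.9%. Without E6R replicate 1 or 2 the counts were 15 and 19, beside 33% and 35.2%.

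Lower under E6R than under TSA were SYN1 (log2 -3.81, SE 0.65, adjusted p = 0.00341), VAMP1 (-3.19, SE 0.41, adjusted p = 0.00124), RAB3B (-2.92, SE 0.33, adjusted p = 0.000757) and STX1A (-2.77, SE 0.49, adjusted p = 0.00407). All 4 kept the call in the alternatives that tested them, with adjusted p up to 0.0285, 0.0230, 0.0138 and 0.0405. SYT11 (log2 -1.82) and DNAJC5 (log2 -1.08) also kept it in 22 of 22. PCLO (log2 -1.56) lost it without TSA replicate 1 (0.0560) or TSA replicate 2 (0.0894), over a range from 2.98e-06 to 0.0894. RAB3A (log2 -1.72, SE 0.57, adjusted p = 0.0453) kept it in 13 of 22, with its highest adjusted p, 0.164, without TSA replicate 2; its E6R replicates, at 8.78 and 33.4 CPM, were far apart. It was also lost without DMSO replicate 2 (0.0565), TSA replicate 1 (0.131) or E6R replicate 1 (0.0589). Leaving out an E6R library moved the size of 3 of these. Without E6R replicate 1 the log2 values were -3.07 for SYN1 and -0.99 for RAB3A, and without E6R replicate 2 they were -5.18 for SYN1, -2.97 for RAB3A and -3.37 for STX1A.

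Higher under E6R than under TSA were CPLX2 (log2 2.75, SE 0.76, adjusted p = 0.0233), RIMS2 (2.18, SE 0.49, adjusted p = 0.0103), SYPL1 (1.92, SE 0.52, adjusted p = 0.0222) and CADPS (1.72, SE 0.40, adjusted p = 0.0114). CADPS, a priming factor of dense-core vesicles, held 3.19 and 3.40 CPM under TSA and 8.40 and 13.3 CPM under E6R, with no overlap. VAMP2 (log2 1.62, adjusted p = 0.0108), STXBP5 (log2 1.47, adjusted p = 0.00180) and SYT4 (log2 1.001, adjusted p = 0.0382) completed the group. STXBP5 kept its call in 22 of 22 alternatives. The other 6 each lost theirs without TSA replicate 2, with adjusted p of 0.119 (CPLX2), 0.0788 (RIMS2), 0.155 (SYPL1), 0.0880 (CADPS), 0.0906 (VAMP2) and 0.0814 (SYT4). Without TSA replicate 1, 5 of these 6 lost it (CPLX2 0.135, RIMS2 0.0714, CADPS 0.0889, VAMP2 0.0721 and SYT4 0.230). Without E6R replicate 1, SYPL1 (0.0596) and SYT4 (0.0586) lost it, and without E6R replicate 2, CPLX2 (0.0682). Their lowest adjusted p over all alternatives were 2.99e-26, 1.79e-16, 1.77e-11, 0.000170, 3.73e-05 and 0.00315 in the order CPLX2, RIMS2, SYPL1, CADPS, VAMP2 and SYT4, and their highest were 0.135, 0.0788, 0.155, 0.0889, 0.0906 and 0.238. Sizes moved as well: without E6R replicate 1 the log2 values were 3.49 for CPLX2, 2.81 for RIMS2 and 1.20 for SYPL1, and without E6R replicate 2 they were 1.47 for CPLX2 and 1.30 for RIMS2. Without TSA replicate 1 that of SYPL1 was 2.57.

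Replicates differed within DMSO and within E6R for many of these genes. Under DMSO 15 of 34 members (44.1%) had at least 2-fold more CPM in replicate 2 than in replicate 1, beside 11.2% of all genes, and no member differed that far the other way, as 9.29% of all genes did. Under E6R 15 members (44.1%) did, beside 14% of all genes, and SYPL1 and UNC13B were at least 2-fold higher in replicate 1, beside 8.09% of all genes. Under TSA 1 member, SV2C, was 2-fold higher in replicate 2 (2.94%, beside 5.89% of all genes), and SYPL1 and RIMS1 were at least 2-fold higher in replicate 1, beside 3.94% of all genes. In 13 members (38.2%, beside 5.57% of all genes) replicate 2 was 2-fold higher under both DMSO and E6R: SYT5, SYT7, STX1A, CPLX1, CPLX2, NAPB, SYP, SYNGR3, SV2C, SYN1, SNAP91, UNC13A and RAB3A.

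SYT5 shows the pattern, at 3.61 and 21.4 CPM in DMSO replicates 1 and 2, 25.9 and 26.5 CPM under TSA, and 4.17 and 29.2 CPM under E6R. Replicate 1 was low under DMSO and E6R, and the other 4 libraries were alike. Beside these genes, REST itself held 55.0 and 17.8 CPM under DMSO, 27.7 and 22.9 CPM under TSA, and 69.0 and 11.5 CPM under E6R, highest in replicate 1 of DMSO and of E6R. The 7 blood and endothelial markers summed to 47.8 and 14.5 CPM under DMSO, 15.8 and 17.2 CPM under TSA, and 62.2 and 8.47 CPM under E6R, with 1 to 4 of the 7 at 0 in each library. The high values lay in PECAM1 (21.7 and 27.7 CPM in replicate 1 of DMSO and E6R) and CDH5 (17.0 and 26.8 CPM), while PTPRC and CD3E had 0 to 9 UMIs in each library. Mesenchymal neuroblastoma markers summed to 1215 and 780 CPM, 3329 and 2230 CPM, and 2102 and 1343 CPM, higher in replicate 1 of each treatment. Single markers of this list moved both ways. Of the 9 tested, 2 were called higher and 1 lower for TSA against DMSO, with log2 values from -3.89 to 3.004. For E6R against DMSO 0 were called, with values from -4.103 to 1.12. The part of these markers in the replicate differences was not tested.

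**Figure D5:**
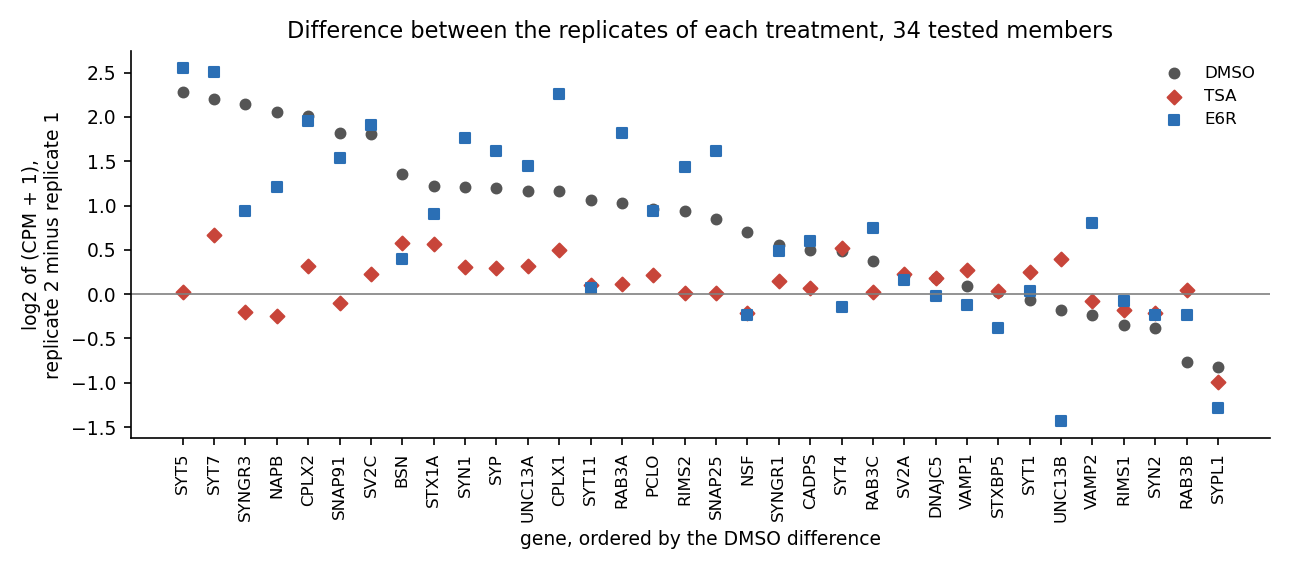
Difference between replicate 2 and replicate 1 in log2 of CPM plus 1 (y axis) for the 34 tested members (x axis, ordered by the DMSO difference), under DMSO (grey circles), TSA (red diamonds) and E6R (blue squares). The grey and blue points on the left lie well above 0, while the TSA points run from -0.99 (SYPL1) to 0.67 (SYT7).

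Other genes of the pathway were read from 4 lists. Their called shares are set beside those of all genes tested. Among genes averaging at least 20 CPM these were higher, at 42.5% for TSA against DMSO and 48.6% for E6R against TSA. Whether the lists, which also hold genes below that level, differed from genes of like level was not tested. Of 53 listed relatives of the release machinery, 44 were tested and 19 (43.2%) passed for TSA against DMSO, 14 higher and 5 lower, beside 29.7% of all genes (16.2% higher and 13.5% lower). Their median log2 was 0.59, beside -0.01 for all genes. PPFIA4, a liprin of the active zone, rose from 0.212 and 0.956 CPM to 4.56 and 6.36 CPM (log2 3.17, adjusted p = 0.0128). SYPL2, a relative of synaptophysin, had 0 and 1 UMIs under DMSO and 33 and 29 under TSA, a ratio of 24.99 with a 95% counting interval from 4.32 to 1003 (adjusted p = 0.0154). UNC13C, a Munc13 relative, fell from 2.12 and 1.72 CPM to 0.228 and 0.348 CPM (log2 -2.71, adjusted p = 0.0330). It had 7 UMIs under TSA, and a UMI ratio of 0.149 with a 95% counting interval from 0.0528 to 0.369. RAB27A, a GTPase of secretory granules, fell from 24.9 and 26.01 CPM to 7.75 and 5.14 CPM (log2 -1.98, adjusted p = 0.00484).

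Of 23 genes of vesicle filling, 21 were tested and 9 (42.9%, beside 29.7% of all genes) passed, 8 higher and 1 lower (median log2 0.50). SLC17A7, the vesicular glutamate transporter VGLUT1, rose from 0.212 and 2.29 CPM to 59.8 and 50.9 CPM, with 0.126 and 0.263 CPM under E6R (log2 5.41, SE 0.62, adjusted p = 0.00145). ATP6V1D, a subunit of the proton pump that energises filling, rose from 67.1 and 78.4 CPM to 238 and 202 CPM (log2 1.60, adjusted p = 0.00187). The gene that fell was SLC18A1, the vesicular monoamine transporter VMAT1, from 9.14 and 6.89 CPM to 2.05 and 1.13 CPM (log2 -2.31, adjusted p = 0.00923).

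Of 26 genes of vesicle endocytosis, 24 were tested and 8 (33.3%, beside 29.7% of all genes) passed, 6 higher and 2 lower (median log2 0.53). SH3GL3, an endophilin, had 0 and 2 UMIs under DMSO and 72 and 45 under TSA, a ratio of 23.6 with a 95% counting interval from 6.38 to 197 (adjusted p = 0.00875). AP2A1, a clathrin adaptor subunit, rose from 23.4 and 36.5 CPM to 177 and 294 CPM (log2 2.97, adjusted p = 0.00125). BIN1, an amphiphysin relative, fell from 46.7 and 79.0 CPM to 18.5 and 17.4 CPM (log2 -1.81, adjusted p = 0.00386), and ITSN2, an endocytic scaffold, from 80.7 and 92.0 CPM to 31.4 and 32.4 CPM (log2 -1.44, adjusted p = 0.00267).

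Of 13 genes of REST and its partners, all were tested and 6 (46.2%, beside 29.7% of all genes) passed, 2 higher and 4 lower (median log2 -0.36). HMG20B, a subunit of the LSD1 corepressor complex, rose from 61.6 and 47.6 CPM to 229 and 286 CPM (log2 2.24, adjusted p = 0.00152), and the corepressor scaffold SIN3A rose from 51.6 and 40.5 CPM to 120 and 146 CPM (log2 1.53, adjusted p = 0.00401). CTDSPL, of the small phosphatase family that acts on REST, fell from 51.6 and 65.6 CPM to 5.32 and 4.27 CPM (log2 -3.61, SE 0.25, adjusted p = 0.000489), and its relative CTDSP1 fell from 73.3 and 51.3 CPM to 21.2 and 23.3 CPM (log2 -1.48, adjusted p = 0.00586). REST did not pass (log2 -0.52, SE 0.77, adjusted p = 0.633). For E6R against DMSO none of the 4 lists had a gene that passed, with 9 of 44, 4 of 21, 2 of 24 and 1 of 13 genes at an unadjusted p under 0.05 in the order given, beside 17.4% of all genes. For E6R against TSA 22 of 44 (50%), 8 of 21 (38.1%), 10 of 24 (41.7%) and 7 of 13 (53.8%) passed, beside 38.2% of all genes.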

How the data were processed

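Per the labels, 6 Seq-Well S3 libraries of one cell line were sequenced. The deposited matrices hold raw UMI counts per gene and barcode. STARsolo 2.7.9a and GRCh38 are named in the submitters' processing notes; not given in the sources used here are the annotation, strand rule and choice of barcodes. Members and lists were chosen with earlier results of these data known. Of the adrenergic markers, 1 is not reported here. Barcodes with at least 500 genes and at most 20% mitochondrial UMIs were kept as cells, no doublet caller was run, and counts were summed per library. All genes were fitted at once with edgeR 4.0.16 in R 4.3.3: quasi-likelihood test, TMM, filterByExpr, group as the only term, all 6 libraries, Benjamini-Hochberg adjustment over 16763 genes, called under 0.05. Adjusted p-values come from this test unless DESeq2 1.42.0 is named. Standard errors were derived from the F statistic. In a permutation test 2 libraries against 2 cannot go below p = 0.333, so single values got none. Replicate numbers come from the sample titles; the replicate 1 minus replicate 2 differences correlated across 7515 genes at 0.242 (DMSO and TSA), 0.564 (DMSO and E6R) and 0.166 (TSA and E6R), and the block was read as a pairing. Members called in a comparison were named, with each library's CPM for those of at least 5 CPM, as were SNAP25, SYT1, SYP, VAMP2 and STX1A, the 4 smallest p for E6R, and the 2 largest changes per direction in each list. RIMS1, CPLX1, SYT5, SV2C, CADPS and the pairs of relatives were given values beyond this rule. Coordinates come from GENCODE 29, in which 34616 of 36601 identifiers were found. The pipeline was tested on simulated counts. Intervals cover counting error only. For each comparison 22 alternatives were tried.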

Additional observations from a re-analysis of the deposited data

How the results depend on the processing

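Each comparison was refitted under 22 alternatives. For TSA against DMSO the lowest adjusted p of SYN1 (5.12e-24) and CPLX2 (2.86e-22) lay far below the main fit's 0.00807 and 0.0327. With 2 libraries per treatment, such lowest values are not read as strength of evidence. For TSA against DMSO the number of members called stayed within 10 to 19 under other scalings, filters and cell sets (18.7% to 42.5% of all genes), was 6 with a fold change of 1.5 tested, and ranged from 2 to 15 when 1 library was left out. For E6R against TSA it stayed within 11 to 19 (24% to 48.6% of all genes), and ranged from 7 to 19 when 1 library was left out. For E6R against DMSO it was 0 in all 22. With the replicate block the counts were 17, 0 and 18, and the block added 4 calls for TSA against DMSO (SYT5, SYT7, VAMP2 and CADPS) and lost none of the 13.

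Reversals of sign occurred only in values that had not passed. For TSA against DMSO, SNAP25 turned to -0.048 with total counts and -0.25 in thinned library sums, and ran from -0.092 to 0.73 when 1 library was left out. SYP turned to -0.20 with total counts and ran from -0.33 to 0.77 when 1 library was left out. For E6R against DMSO, VAMP2 turned to -0.34 in thinned cells, and SYP to 0.031 with DESeq2, 0.13 without a low-count filter, 0.021 at 300 genes per barcode, 0.044 over all barcodes and 0.056 in thinned cells. With 1 library left out, SNAP25 ran from -0.27 to 1.53, SYP from -1.05 to 0.74 and STX1A from -0.97 to 0.49. For E6R against TSA, SYT1 turned to 0.019 with total counts and 0.090 without a low-count filter, and SYP to 0.045 and 0.11. With 1 library left out, SNAP25 ran from -0.55 to 1.23 and SYP from -1.18 to 0.53. The cause was not tested.

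Shares of cells with a UMI follow depth by construction. Mean shares over the 2 libraries at 1000 UMIs, unthinned and at 500 UMIs were 8.51%, 25.02% and 4.84% for SYN1 under TSA; for SYT1 they were 31.5%, 40.0% and 17.5% under DMSO, 32.5%, 54.7% and 18.4% under TSA, and 33.4%, 52.0% and 18.8% under E6R. Unthinned, SYN1 under E6R was 3.56% and CPLX2 under TSA 7.48%. Among single genes 825 refits kept direction and call, 83 lost a call and 10 gained one. With 2 libraries per treatment the spread between replicates limits these results. So does the number of molecules, for RIMS1, SV2B, SV2C, CADPS2 and, under DMSO, VAMP1.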
